A study of Mus musculus with 16 samples.

Results

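The apolipoproteins are the protein components of the lipid particles that the liver releases into blood. From a list of symbols, chosen with earlier results of these data known, 10 of their genes were examined here in mouse liver: Apoa1, Apoa2, Apoa4, Apoa5, Apob, Apoc1, Apoc3, Apoe, Apoh and Apom. Each symbol was matched to 1 of the 55471 gene identifiers of the deposited tables through a GRCm38 annotation. All 10 passed the filter on low counts, as did 17046 genes in all. RNA came from snap-frozen liver portions of 16 mice. There were 4 aged mice (102 weeks) of the antibiotic group PAM II, 4 aged mice (102 weeks) of the antibiotic group PAM I, 4 aged mice (102 weeks) without antibiotics (no ABX), and 4 young adults (12 weeks) without antibiotics. According to the title of the series, antibiotics were given in early life. The drugs, the doses, the meaning of PAM, and the strain, sex, litter and cage of the mice are not given in the sources used here. One free-text field names the young mice as aged, and their title, age and group entries were followed instead.

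Apoa1 and Apoa2 form the scaffold of high-density lipoprotein (HDL), and Apob is the large structural protein of very-low-density lipoprotein (VLDL). Smaller proteins sit on these particles and steer their fate. Apoe binds receptors that clear remnant particles, Apoc1 and Apoc3 slow that clearance, and Apoa5 favours the breakdown of triglyceride. Apom is a lipocalin of HDL that carries the signalling lipid sphingosine-1-phosphate. Apoa4, abundant in intestine and also made in mouse liver, is secreted on particles rich in triglyceride. Apoh, also called beta-2-glycoprotein I, binds phospholipids.

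Between 36968993 and 52090914 fragments per library were assigned to genes, so counting error is small beside the spread between mice for every one of the 10 genes. The lowest Apom count was 1947 fragments. Levels are given as CPM, counts scaled to a total of 1000000 fragments after TMM scaling, and levels of different genes are compared only as CPM per kilobase of exon (FPKM). Differences are log2 fold changes ± standard error (SE) from an edgeR quasi-likelihood fit of all 16 libraries, and a gene was called when its p, adjusted by Benjamini-Hochberg over the 17046 genes, was under 0.05. All 12 hepatocyte marker genes were detected in every library, with summed levels of 114439 to 137401 CPM in PAM II livers, 79615 to 137343 CPM in PAM I livers, 100699 to 132491 CPM in aged no ABX livers and 108121 to 134553 CPM in young livers. Well names in the file headers place the PAM II and young libraries in plate column 2 and the PAM I and aged no ABX libraries in plate column 1. Effects of age and plate column can therefore not be told apart for PAM I or aged no ABX livers against young livers. PAM II and young livers shared a column. Both PAM groups differ from young mice in age and in antibiotics, and these 2 effects cannot be told apart against young livers. Nothing in the labels pairs the mice. In bulk liver, fewer cells of a type and less RNA per cell cannot be told apart.

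The 10 genes spanned 2 orders of magnitude of FPKM. Together they took 5.50 ± 0.138% of assigned fragments in PAM II livers, 6.49 ± 0.487% in PAM I livers, 5.53 ± 0.529% in aged no ABX livers and 6.07 ± 0.598% in young livers (SD, n = 4 each). By mean FPKM over the 16 livers the order was Apoa2 (13411), Apoe (12417), Apoa1 (9874), Apoc1 (4910), Apoc3 (1591), Apoh (1116), Apoa4 (601), Apoa5 (444), Apob (269) and Apom (120). Apoa2 ranked 3 and Apom 397 among all genes tested. The ranges of Apoa2 and Apoe overlapped widely, at 10010 to 22810 FPKM for Apoa2 and 10322 to 15174 FPKM for Apoe. Their order also changed from liver to liver. Young replicate 1 held 22810 FPKM of Apoa2 and 12531 FPKM of Apoe, and young replicate 3 held 10086 and 12125 FPKM. Variability ran in a different order: the SD of log2 CPM over the 16 livers was 0.10 for Apoh and 0.16 for Apoe, but 0.66 for Apom and 1.37 for Apoa4.

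**Figure D1:**
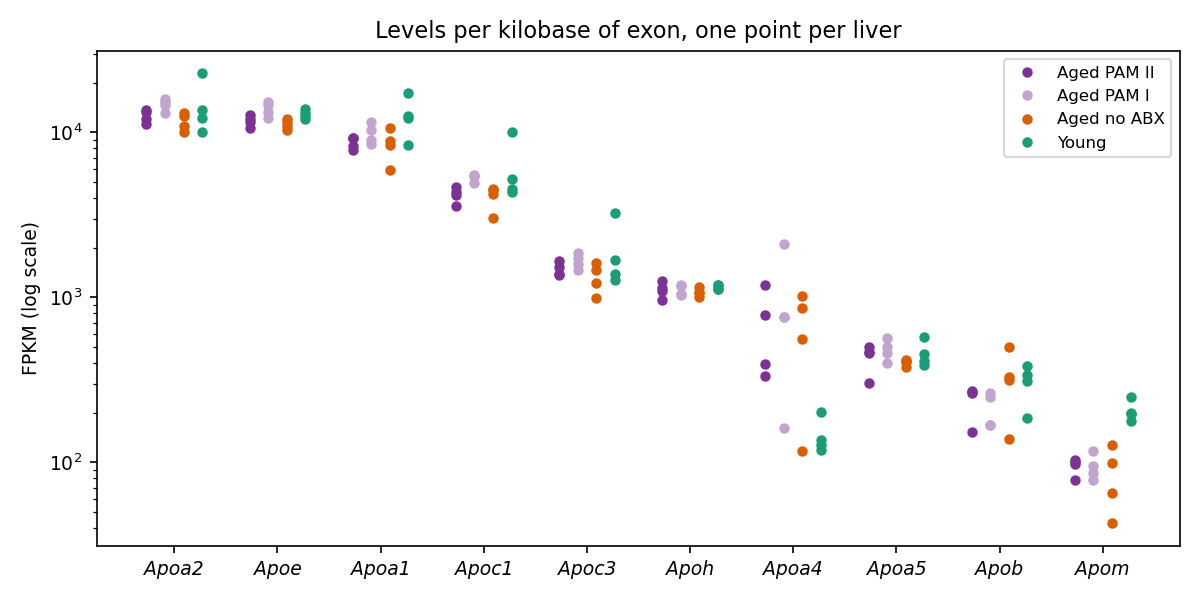
FPKM on a log axis for the 10 apolipoprotein transcripts, ordered by their mean; each point is 1 liver (4 per group; aged PAM II, aged PAM I, aged no ABX and young). Apoa2, Apoe and Apoa1 lie highest. For Apom every aged liver lies below every young one, while for Apoa4 most, but not all, aged livers lie above the young ones.

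Apom transcript was lower in aged than in young livers, in each of the 3 aged groups. It stood at 105.2, 79.5, 101.4 and 98.9 CPM in PAM II livers, at 86.9, 79.1, 95.9 and 119.0 CPM in PAM I livers, at 128.6, 66.4, 100.5 and 43.4 CPM in aged no ABX livers, and at 179.4, 199.5, 201.3 and 253.5 CPM in young livers. Each of the 12 aged livers lay below each of the 4 young livers. A gap of this kind, with every aged liver below every young one, was found in 1.81% of the genes tested. The gene lies on chromosome 17 at 35128997 to 35132050 of GRCm38, on the minus strand, and no annotated gene overlaps it.

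Apom was the single one of the 10 called in PAM II against young livers, where 5.19% of all genes were called and 2.01% were called lower, with a mean of 96.2 ± 11.47 CPM against 208 ± 31.7 CPM (SD, n = 4 each). The log2 fold change was -1.12 ± 0.25 (95% interval -1.65 to -0.58, adjusted p = 0.0190, edgeR). In PAM I livers, at 95.2 ± 17.3 CPM (SD, n = 4), it was -1.13 ± 0.25 (95% interval -1.66 to -0.60, adjusted p = 0.0151, edgeR), where 3.38% of all genes were called lower. Aged no ABX livers, at 84.7 ± 37.5 CPM (SD, n = 4), gave -1.30 ± 0.25 (95% interval -1.83 to -0.76, adjusted p = 0.0112, edgeR), where 1.31% were called lower. The 3 comparisons share the young libraries and are not independent of each other. Among the aged groups the order of the Apom means does not differ beyond their spread, and aged no ABX livers varied most, with replicate 4 lowest of all 16.

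The mean log2 level of the hepatocyte markers, each centred on its own mean, was -0.32 to 0.10 in PAM II livers, -0.17 to -0.04 in PAM I livers, -0.35 to 0.05 in aged no ABX livers and 0.05 to 0.38 in young livers, and none of the 12 was called in any comparison with young livers. With that level as a covariate, an alternative chosen after seeing the data, the Apom difference was -0.92 in PAM II livers (adjusted p = 0.0802), -0.88 in PAM I livers (adjusted p = 0.187) and -1.11 in aged no ABX livers (adjusted p = 0.0426, edgeR). Over all 20 alternatives the adjusted p reached 0.0802, 0.187 and 0.0723 at most in the PAM II, PAM I and aged no ABX comparisons, and the call held in 17, 19 and 19 of them. In the PAM II comparison it was lost without PAM II replicate 2 (0.0577) and without young replicate 4 (0.0653). In aged no ABX livers it was lost when the fit held only the 8 libraries compared (0.0723).

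**Figure D2:**
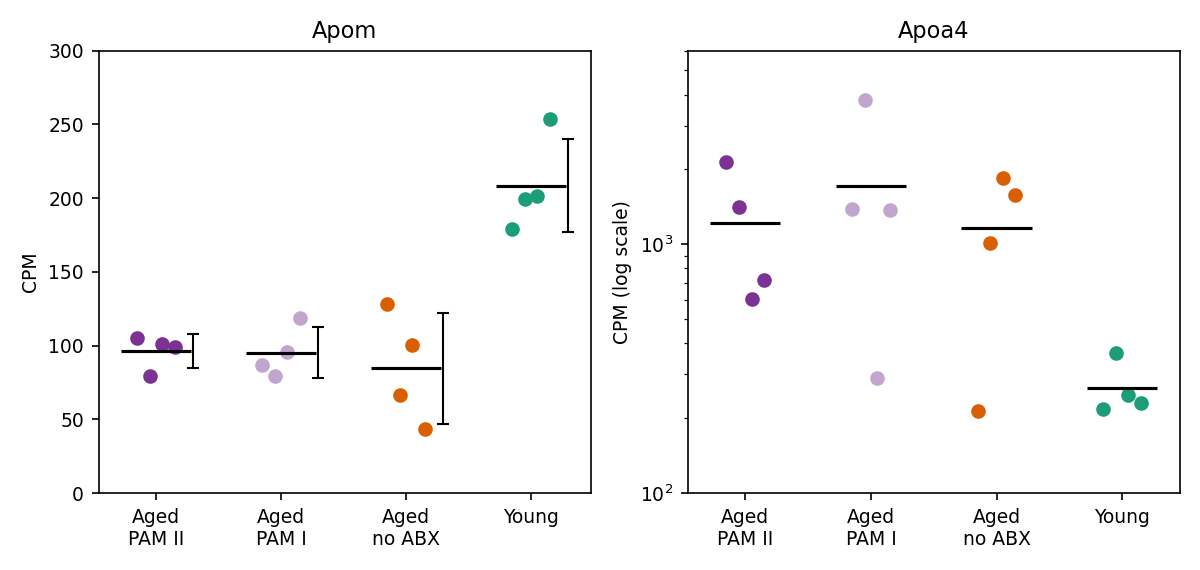
CPM of Apom (left, linear axis from 0) and Apoa4 (right, log axis) in each liver of the 4 groups; horizontal lines are group means, and bars on the left are the SD (n = 4). All aged livers lie below the young ones for Apom, whereas for Apoa4 most aged livers lie above the young ones, with PAM I replicate 3 and aged no ABX replicate 1 at the young level.

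Apoa4 was the most variable of the 10 transcripts, and its difference from young livers ran in the direction opposite to that of Apom. It stood at 2152, 1414, 604 and 717 CPM in PAM II livers, at 1387, 3803, 292 and 1373 CPM in PAM I livers, at 213, 1017, 1842 and 1574 CPM in aged no ABX livers, and at 217, 366, 249 and 230 CPM in young livers. PAM II livers lay above every young liver. In PAM I livers 1 of 4 (replicate 3), and in aged no ABX livers 1 of 4 (replicate 1), fell inside or below the range of the young livers. The highest aged liver held 17.8 times the Apoa4 level of the lowest, against 1.69 times among young livers.

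Apoa4 passed the test in 1 of the 3 comparisons with young livers. In PAM I livers it rose by a log2 fold change of 2.69 ± 0.69 (95% interval 1.23 to 4.15, adjusted p = 0.0284, edgeR), which with Apom made 2 of the 10 called, where 8.22% of all genes were called and 4.83% were called higher. In PAM II livers the difference was 2.20 ± 0.68 (95% interval 0.77 to 3.64) and missed the threshold (adjusted p = 0.0692, edgeR), although every PAM II liver lay above every young one, as was so for 8.17% of all genes. In aged no ABX livers it was 2.13 ± 0.67 (95% interval 0.70 to 3.56, adjusted p = 0.0982, edgeR), and Apom was then the 1 member called, where 3.23% of all genes were called. The interval in each group includes the estimate of the other 2, and a value past the threshold in PAM I livers alone does not show that they differ.

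The PAM I call was a narrow one. It held in 11 of 20 alternatives, with adjusted p up to 0.323 when the hepatocyte marker level was a covariate, where the difference was 1.86. Leaving out 1 library at a time gave adjusted p values up to 0.0868, and the call held in 3 of 8 such fits. DESeq2 called Apoa4 in PAM I (adjusted p = 0.000783), PAM II (adjusted p = 0.00958) and aged no ABX livers (adjusted p = 0.0160) against young livers. The range of adjusted p over all alternatives was 0.00958 to 0.259 in PAM II livers and 0.0160 to 0.387 in aged no ABX livers.

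Because Apoa4 is an intestinal transcript as well, markers of intestinal epithelium were read in the same libraries. The sucrase gene Sis and the intestinal regulator Cdx1 were at 0 in all 16 libraries, Cdx2 was at 0 in 15, and the alkaline phosphatase Alpi was at 0 in 14. The mucin Muc2 did not exceed 0.29 CPM. Summed over the 11 markers with an entry, the level was 265 to 299.9 CPM in PAM II livers, 239 to 327 CPM in PAM I livers, 232 to 322 CPM in aged no ABX livers and 211 to 248 CPM in young livers. Most of it was Anpep, Fabp2 and Lgals4, which liver also expresses. Of the 5 markers that passed the filter on low counts, 1 was called higher in PAM II, 1 in PAM I and 0 in aged no ABX livers than in young livers. Over all genes, 3.17%, 4.83% and 1.92% were called higher in these comparisons. The glucose transporter Slc5a1 was called in PAM II livers, at 3.61 ± 2.66 CPM against 0.857 ± 0.274 CPM in young livers (SD, n = 4 each), a difference of 2.08 ± 0.47 on the log2 scale (adjusted p = 0.0194, edgeR). The fatty acid binding protein gene Fabp2 was called in PAM I livers, at 79.6 ± 8.18 CPM against 41.8 ± 6.49 CPM in young livers (SD, n = 4 each), a difference of 0.93 ± 0.20 on the log2 scale (adjusted p = 0.0137, edgeR). The part of these markers in the Apoa4 differences was not tested.

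Apoa4 lies in the cluster Apoa1, Apoc3, Apoa4 and Apoa5 on chromosome 9, which spans 43340 bases from the start of Apoa1 to the end of Apoa5 (GRCm38), with Apoc3 on the minus strand. The other 3 genes of the cluster were not called in any comparison. After group means were removed, Apoa4 and Apoa1 had a Pearson r of -0.02 (permutation p = 0.931, adjusted over 45 pairs 0.946) and a Spearman rho of 0.02 (permutation p = 0.940) over the 16 livers (r = 0.11 without the 2 livers farthest from the median of Apoa1). The stretches just before the annotated starts of both genes are shown because neighbours of 1 cluster differed in their spread. They come from RefSeq promoter sequences (GRCm38.p6) and end at the base before the annotated start. Overlap with exons of other genes was not checked. The 102 bases before Apoa4 are chr9:46240594-46240695 on the plus strand, and the 200 bases before Apoa1 are chr9:46228380-46228579 on the plus strand. Capitals mark matches to 5 searched motifs.
Apoa4: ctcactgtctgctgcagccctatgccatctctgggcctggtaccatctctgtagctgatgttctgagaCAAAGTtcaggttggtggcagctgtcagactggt
Apoa1: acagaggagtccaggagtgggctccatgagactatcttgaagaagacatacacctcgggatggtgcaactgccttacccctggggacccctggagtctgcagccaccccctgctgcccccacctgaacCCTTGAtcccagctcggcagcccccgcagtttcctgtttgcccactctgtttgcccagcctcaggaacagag

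The motifs were searched on both strands, and no matches overlap. They were CAAAGT, the core of sites for the liver factor HNF4A. The core of sites for the nuclear receptor NR5A2 was read as TCAAGG. An E-box was read as CACGTG. For the cyclic AMP response element the letters were TGACGT. The TATA box was searched as TATAAA. Apoa4 held CAAAGT 34 bases before its annotated start. On either strand, 5.75% of 32851 RefSeq promoters hold it in the first 102 bases of their entries. Apoa1 held CCTTGA, the opposite strand of TCAAGG, 72 bases before its annotated start. That motif is in the first 200 bases of 10.3% of the entries. Entries begin 250 bases before their RefSeq start, so these shares are not for the bases next to a start. These matches describe letters in the printed stretches and were not tested as sites. RefSeq promoter entries were matched for 8 of the 10 genes.

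Genes with the pattern most like that of Apoa4 over the 16 livers were ranked by the root mean square difference of centred log2 CPM among 17045 genes. The closest were Gm10680 (0.16) and Gm47528 (0.35), which overlap Apoa4 on the opposite strand. They held 0.779 to 1.07% and 0.0948 to 0.225% of the Apoa4 fragments, so reads of Apoa4 assigned to the wrong strand and transcripts of their own cannot be told apart at these levels. Next came Cgref1 (0.54), a growth regulator with calcium-binding EF hands, Fgf21 (0.54), the hepatic hormone of fasting and nutrient stress, and the predicted gene Gm19619 (0.58).

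Fgf21 stood at 14.5, 12.0, 6.39 and 5.68 CPM in PAM II livers, at 16.1, 31.5, 5.56 and 11.4 CPM in PAM I livers, at 3.07, 4.55, 12.8 and 12.98 CPM in aged no ABX livers, and at 1.07, 2.95, 3.01 and 3.46 CPM in young livers. Against young livers the log2 fold changes of Fgf21 were 1.87 ± 0.56 in PAM II, 2.62 ± 0.57 in PAM I and 1.66 ± 0.56 in aged no ABX livers, and those of Cgref1 were 1.80 ± 0.40, 2.06 ± 0.40 and 1.64 ± 0.40. Both genes were picked for their likeness to Apoa4 over these same livers, so these values are a description with no test.

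Apoa1, the main protein of HDL, was not called in any comparison with young livers. Its levels were 11464, 10251, 11364 and 9726 CPM in PAM II livers, 12751, 10448, 11164 and 14236 CPM in PAM I livers, 10293, 7265, 10963 and 13043 CPM in aged no ABX livers, and 21521, 10297, 15004 and 15472 CPM in young livers. Young replicate 2 lay within the aged range and the other 3 young livers above it. The differences from young livers were -0.54 ± 0.21 in PAM II (adjusted p = 0.141), -0.36 ± 0.21 in PAM I (adjusted p = 0.291) and -0.58 ± 0.21 in aged no ABX livers (adjusted p = 0.144, edgeR). With the hepatocyte marker level as a covariate, Apoa1 was called lower in PAM II (-0.79, adjusted p = 0.0407) and aged no ABX livers (-0.91, adjusted p = 0.0337), and stood at -0.72 in PAM I livers (adjusted p = 0.142, edgeR). Over the 20 alternatives its adjusted p ran between 0.0407 and 0.334 in PAM II and between 0.0337 and 0.374 in aged no ABX livers. Apoa2, the second HDL scaffold protein, lay between -0.34 and 0.00 on the same scale, with groups that overlapped.

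Young replicate 1 set much of the young spread among the small apolipoproteins. Apoc1 was 2658, 3462, 3118 and 3247 CPM in PAM II livers, 4108, 3671, 4063 and 4073 CPM in PAM I livers, 3148, 3375, 2238 and 3348 CPM in aged no ABX livers, and 7460, 3257, 3369 and 3857 CPM in young livers. Apoc3, an inhibitor of triglyceride breakdown, was 1380 to 1681 CPM in PAM II livers, 1477 to 1882 CPM in PAM I livers, 1001 to 1636 CPM in aged no ABX livers and 1295 to 1713 CPM in young replicates 2 to 4, against 3313 CPM in young replicate 1. The same liver was highest for Apoa2, at 12249 CPM, and for Apoa1. Differences from young livers ranged from -0.57 to -0.17 for Apoc1 and from -0.53 to -0.20 for Apoc3, and none was called. Without young replicate 1 they were -0.17 in PAM II, 0.17 in PAM I and -0.21 in aged no ABX livers for Apoc1, and 0.02, 0.17 and -0.14 for Apoc3, again with no call. For Apoa2 they were then 0.06, 0.27 and -0.05, and for Apoa1 -0.35, -0.18 and -0.39. The direction in PAM I livers for Apoc1, in PAM II livers for Apoa2, and in PAM II and PAM I livers for Apoc3, thus rested on that 1 young liver.

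Apoe and Apoh were the steadiest transcripts. Apoe was 22578 to 27139 CPM in PAM II livers, 26025 to 32442 CPM in PAM I livers, 22068 to 25686 CPM in aged no ABX livers and 25923 to 29561 CPM in young livers. Aged no ABX livers lay below young livers without overlap, as did 4.44% of all genes, and the difference of -0.20 ± 0.12 was not called (95% interval -0.46 to 0.06, adjusted p = 0.400, edgeR). Apoh differed from young livers by -0.11 to -0.06, and the 3 95% intervals together ran from -0.33 to 0.17. Apoa5 differed by -0.19 to 0.08, with no call.

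**Figure D3:**
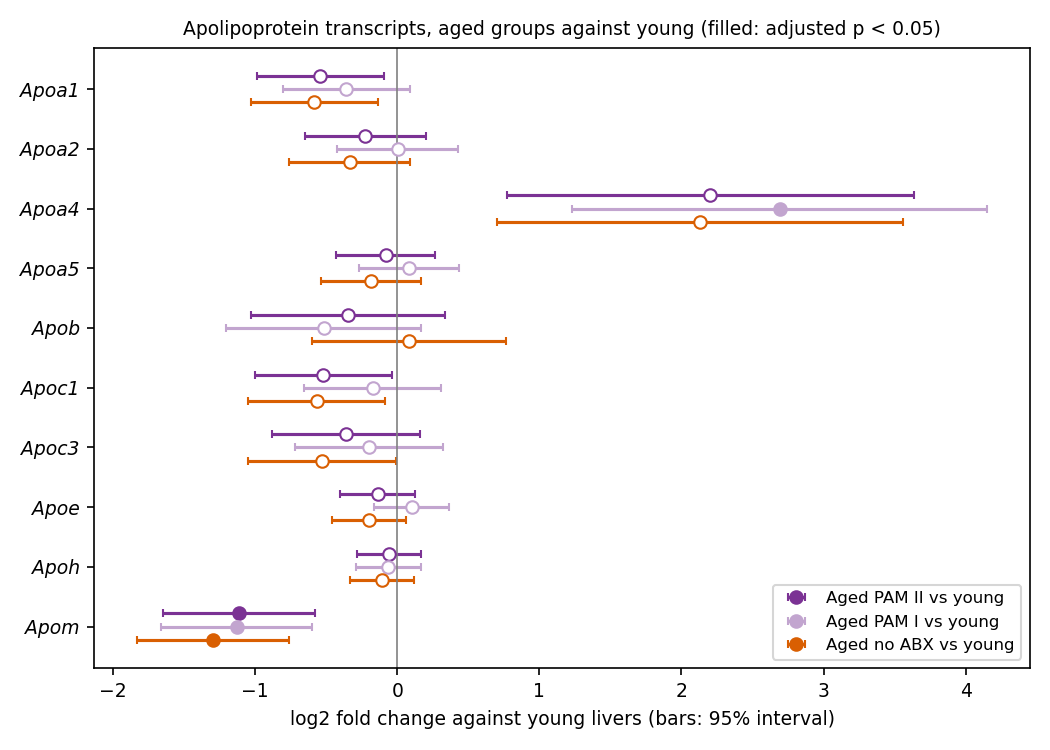
Log2 fold change against young livers (horizontal axis) for each of the 10 genes in aged PAM II, aged PAM I and aged no ABX livers, with 95% intervals from the edgeR fit; filled points passed an adjusted p of 0.05. Filled points are Apom in all 3 groups, near -1.1 to -1.3, and Apoa4 in PAM I livers at 2.69; the other 8 genes have open points within 0.6 of 0.

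Apob carried a spread between mice that moved with a property of the libraries. Its levels were 2130, 3732, 3669 and 3790 CPM in PAM II livers, 3471, 3665, 2339 and 2358 CPM in PAM I livers, 4406, 4601, 6971 and 1943 CPM in aged no ABX livers, and 2572, 5341, 4700 and 4341 CPM in young livers. All 4 groups overlapped, and the differences from young livers were -0.35 ± 0.32 in PAM II (adjusted p = 0.558), -0.52 ± 0.32 in PAM I (adjusted p = 0.321) and 0.08 ± 0.32 in aged no ABX livers (adjusted p = 0.927, edgeR). Apob has the longest exon total of the 10, at 13934 bases, against 537 bases for Apoa2.

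A length index was computed for each library as the median centred log2 CPM of 4406 genes with at least 6000 exon bases minus that of 2922 genes under 1500 bases. It was -0.17 to 0.13 in PAM II livers, -0.41 to -0.06 in PAM I livers, -0.19 to 0.34 in aged no ABX livers and -0.25 to 0.22 in young livers. Apob is itself 1 of the 4406 long genes and Apoc3, with 1014 exon bases, 1 of the 2922 short ones, so the sign of each relation follows in part from how the index is built. With group means removed, Apob and the index had a Pearson r of 0.944, also when the 10 genes were left out of the index (permutation within groups, p = 0.00022, adjusted over 10 genes 0.0022) and a Spearman rho of 0.929 (permutation p = 0.00028). The median r of the long genes was 0.356, and 3.2% of them had an r at least as high as Apob. The r of Apob was 0.917 without aged no ABX replicate 4 and young replicate 1, the livers farthest from the median, and 0.955 in plate column 1 and 0.941 in plate column 2 (8 libraries each). Apoc3 ran the other way, with r = -0.725 (permutation p = 0.00443, adjusted 0.0221) and rho = -0.659 (permutation p = 0.0232, adjusted 0.0956). Its r was -0.547 without those livers, -0.642 in column 1 and -0.841 in column 2, and 13.3% of the short genes, whose median r was -0.275, had an r at least as low. None of the other 8 genes passed. Apoa2 (r = -0.615, adjusted permutation p = 0.0867), Apoa1 (r = -0.608, adjusted 0.107) and Apoc1 (r = -0.582, adjusted 0.107) came nearest, with r = 0.11 for Apoa4 and r = 0.21 for Apom. With the index as a covariate, Apob differed from young livers by -0.38 in PAM II (adjusted p = 0.0934), 0.15 in PAM I (adjusted p = 0.589) and -0.20 in aged no ABX livers (adjusted p = 0.418, edgeR). The PAM I and aged no ABX values thus turned direction with the covariate, and none was called with or without it. Apom stayed called in the 3 comparisons with young livers with the index as a covariate, at -1.12, -1.05 and -1.33 in PAM II, PAM I and aged no ABX livers, with adjusted p values of 0.0166, 0.0461 and 0.0119 (edgeR).

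**Figure D4:**
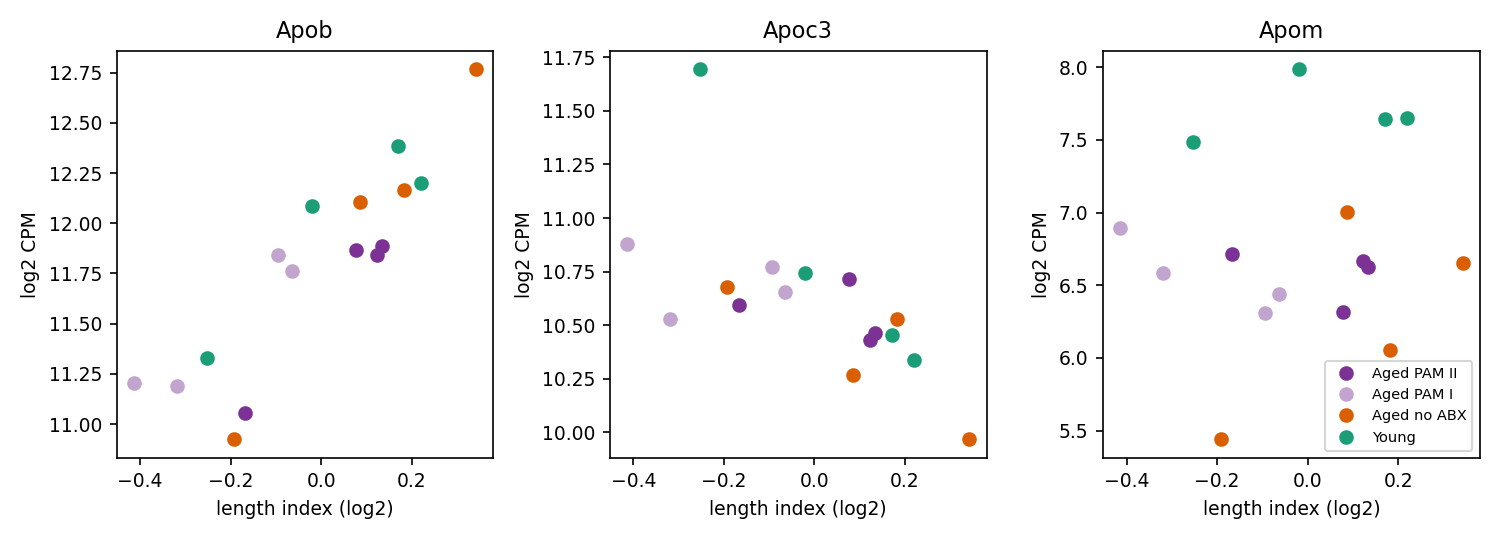
Log2 CPM of Apob, Apoc3 and Apom (vertical axes) against the length index of each library (horizontal axis, log2); each point is 1 liver of the 4 groups. Apob climbs with the index across all groups, while for Apom the 4 young livers lie above the aged ones at every value of the index.

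Of the 45 pairs of the 10 genes, 1 passed a permutation test on deviations from group means. Apoa2 and Apoc1, on chromosomes 1 and 7, had r = 0.931 (permutation p = 0.00016, adjusted 0.0072) and rho = 0.882 (permutation p = 9e-05, adjusted 0.00405). The r was 0.867 without young replicates 1 and 3, and 0.830 and 0.955 in plate columns 1 and 2. Both genes had a negative r with the length index, whose part in their relation was not tested. Apoa2 with Apoc3 (r = 0.905, adjusted permutation p = 0.0508) and Apoc1 with Apoc3 (r = 0.898, adjusted permutation p = 0.0708) missed the threshold. Apoc1 and Apoe, neighbours on chromosome 7 separated by 3448 bases, had r = 0.124 (permutation p = 0.633, adjusted 0.842).

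**Figure D5:**
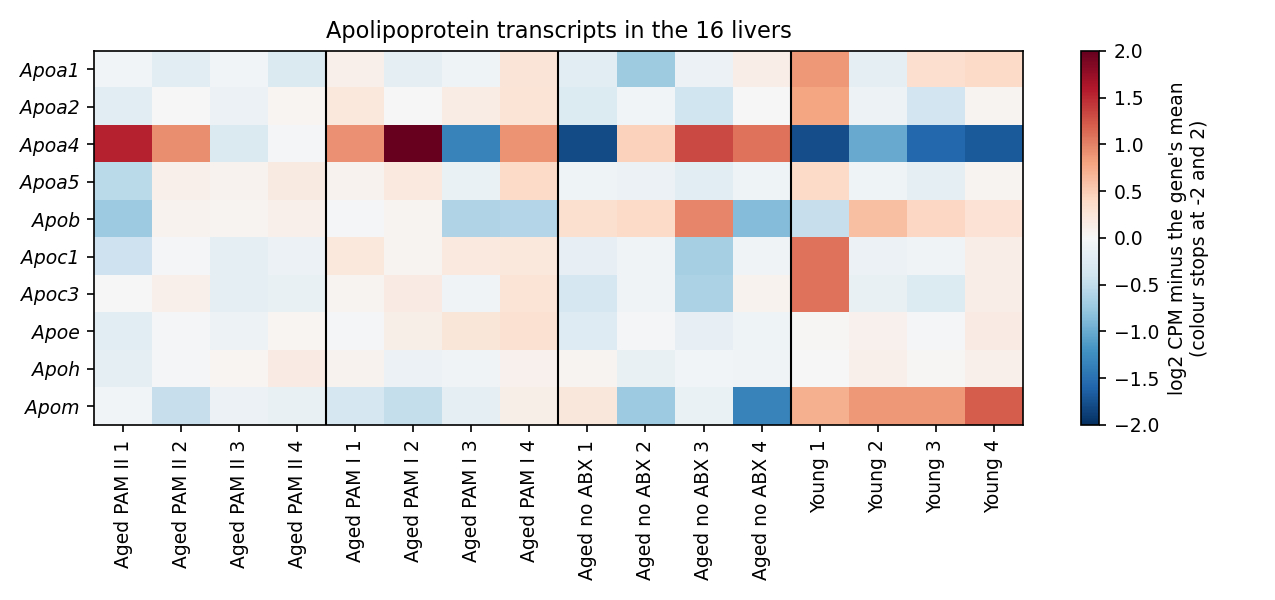
Log2 CPM of each of the 10 genes (rows) minus the mean of that gene over the 16 livers, by liver (columns, grouped as aged PAM II, aged PAM I, aged no ABX and young); red is above and blue below the mean of the gene, and the colour stops at -2 and 2. Apom is red in all 4 young livers, Apoa4 is blue there, and young replicate 1 stands out in red for Apoa1, Apoa2, Apoc1 and Apoc3.

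The antibiotic comparisons called none of the 10 genes. PAM I and aged no ABX livers shared plate column 1, but PAM II livers were in column 2, so antibiotic group and plate column cannot be told apart for PAM II against aged no ABX or PAM I livers. No gene of the 17046 was called by edgeR in PAM II against aged no ABX livers, in PAM I against aged no ABX livers or in PAM II against PAM I livers (0% of genes in each). At an unadjusted p under 0.05 the counts were 465 (2.73%), 1602 (9.4%) and 778 (4.56%) genes, among them 0, 1 and 0 of the 10, the 1 being Apoe. DESeq2 called 0, 16 and 0 genes, none of the 10 among them, and limma voom called 0 in each.

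Apoe averaged 29569 ± 2874 CPM in PAM I livers and 23999 ± 1583 CPM in aged no ABX livers (SD, n = 4 each), and the lowest PAM I liver lay above the highest aged no ABX liver. The log2 difference was 0.30 ± 0.12 (95% interval 0.04 to 0.56), and it did not pass the edgeR test over all genes (adjusted p = 0.506). Apoa2 (0.34 ± 0.20, adjusted p = 0.606) and Apoc1 (0.39 ± 0.23, adjusted p = 0.593) were also higher in each PAM I liver than in each aged no ABX liver. That made 3 of the 10 without overlap on the higher side, where 3.07% of all genes were, and none of the 3 passed the test. In PAM I livers the length index lay below 0 in all 4 libraries. With it as a covariate, Apoe differed by 0.26 (adjusted p = 0.594, within 0.189 to 0.999 over the alternatives), Apoa2 by 0.03 (adjusted p = 0.965) and Apoc1 by 0.06 (adjusted p = 0.944, edgeR).

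In PAM II livers against aged no ABX livers the 10 genes lay between -0.43 (Apob) and 0.18 (Apom), all with overlapping livers. Apoe differed there by 0.06 ± 0.12 (95% interval -0.20 to 0.32). PAM II against PAM I livers gave -0.49 (Apoa4) to 0.17 (Apob), and Apoc1 was lower in every PAM II liver than in every PAM I liver (-0.35 ± 0.23, adjusted p = 0.880, edgeR), as were 2.9% of all genes. With the length index as a covariate that difference was -0.06 (adjusted p = 0.979, edgeR). For Apom the intervals were -0.34 to 0.71 for PAM II and -0.36 to 0.70 for PAM I against aged no ABX livers. For Apoa4 they were -1.30 to 1.45 and -0.82 to 1.94.

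Over all 10 genes the median log2 fold change against young livers was -0.29 in PAM II, -0.12 in PAM I and -0.27 in aged no ABX livers, beside -0.02, -0.02 and -0.01 over all genes tested. Without young replicate 1 the differences of Apoa1, Apoa2, Apoc1 and Apoc3 moved upward in each comparison, as given above. The medians without that liver were not computed. Among 20 other measured genes of apolipoproteins and HDL proteins, 0 were called in PAM II livers, 1 in PAM I livers and 1 in aged no ABX livers, with medians of -0.03, 0.03 and -0.03. DESeq2 called 1, 1 and 2 of them, limma voom 1, 2 and 0, and 5, 3 and 4 had an unadjusted p under 0.05. Of all genes, edgeR called 5.19%, 8.22% and 3.23%, and 22.6%, 26.7% and 19% had an unadjusted p under 0.05. The gene called by edgeR was Saa2, an acute-phase apolipoprotein, at 80.9 ± 28.2 CPM in PAM I and 105 ± 97.4 CPM in aged no ABX livers, against 15.8 ± 13.3 CPM in young livers (SD, n = 4 each). Its log2 fold changes were 1.77 ± 0.66 in PAM II (adjusted p = 0.125), 2.35 ± 0.67 in PAM I (adjusted p = 0.0422) and 2.73 ± 0.68 in aged no ABX livers (adjusted p = 0.0395, edgeR). The near-identical paralog Saa1 may share reads with it, so these values are uncertain. The calls of Saa2 held in 10 (PAM I) and 8 (aged no ABX) of 20 alternatives.

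Among 26 genes of lipoprotein assembly and secretion, 1 was higher and 1 lower in PAM II, 1 higher and 2 lower in PAM I, and 0 higher and 1 lower in aged no ABX livers than in young livers. Those counts stand beside 5.19%, 8.22% and 3.23% of all genes called in these comparisons. Sort1, a sorting receptor that binds Apob and steers it in the secretory pathway, was lower in each aged group. It averaged 14.99 ± 4.01 CPM in PAM II, 15.2 ± 4.66 CPM in PAM I and 16.3 ± 7.17 CPM in aged no ABX livers, against 38.0 ± 8.04 CPM in young livers (SD, n = 4 each), with log2 fold changes of -1.34, -1.32 and -1.22 and adjusted p values of 0.0142, 0.0131 and 0.0303 (edgeR). The call in aged no ABX livers held in 11 of 20 alternatives. Tm6sf2, which helps load lipid onto VLDL, was higher in PAM II (0.54 ± 0.14, adjusted p = 0.0307) and PAM I livers (0.54 ± 0.14, adjusted p = 0.0270) and stood at 0.45 ± 0.14 in aged no ABX livers (adjusted p = 0.0847, edgeR). Klhl12, a ubiquitin ligase adaptor for large transport vesicles, fell in PAM I livers (-0.40 ± 0.11, adjusted p = 0.0427, edgeR). The Tm6sf2 calls held in 13 (PAM II) and 12 (PAM I) of 20 alternatives and the Klhl12 call in 10.

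Of 13 measured receptors for these particles, 3 were higher and 1 lower in PAM II, 3 higher in PAM I and 3 higher in aged no ABX livers, with medians of 0.28, 0.04 and 0.03. Over all genes 5.19%, 8.22% and 3.23% were called in the same comparisons. The VLDL receptor Vldlr was at 8.90 ± 1.13, 9.08 ± 4.997 and 7.83 ± 1.40 CPM in PAM II, PAM I and aged no ABX livers, against 1.93 ± 0.64 CPM in young livers (SD, n = 4 each), and rose by 2.20, 2.23 and 2.02 on the log2 scale (adjusted p = 0.00151, 0.00125 and 0.00332, edgeR). Sorl1, a sorting receptor of the same family that binds Apoe, rose by 1.94, 1.53 and 1.58 (adjusted p = 0.000557, 0.00308 and 0.00314, edgeR). The fatty acid transporter Cd36 rose too, by 2.89, 2.74 and 2.74 (adjusted p = 0.000557, 0.000724 and 0.00103, edgeR). Lrp2, the large receptor megalin, was the gene called lower in PAM II livers (-2.91 ± 0.80, adjusted p = 0.0469), at 0.29 ± 0.13 CPM against 2.17 ± 1.61 CPM in young livers. That call held in 10 of 20 alternatives. Macrophages also express some of these receptors. Of 12 markers of Kupffer cells, the resident macrophages, 2, 1 and 0 were called higher in PAM II, PAM I and aged no ABX livers, and none lower. Of 8 markers of recruited macrophages, 4, 5 and 4 were called higher in the same groups. Their summed level was 111 to 612 CPM, 186 to 335 CPM and 139.5 to 324 CPM, against 63.7 to 95.8 CPM in young livers, with none of the 8 at 0 in all libraries. The part of either cell type in the receptor differences was not tested.

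Of 11 lipases and their inhibitors, 1 was called, the endothelial lipase Lipg, which acts on HDL phospholipid, in PAM II livers (1.07 ± 0.28, adjusted p = 0.0393), beside 0.54 ± 0.28 in PAM I (adjusted p = 0.236) and 0.51 ± 0.28 in aged no ABX livers (adjusted p = 0.339, edgeR). The Lipg call held in 12 of 20 alternatives. At an unadjusted p under 0.05 there were 3, 0 and 0 of these 11, beside 22.6%, 26.7% and 19% of all genes. DESeq2 called 1, 0 and 0 of the 11, and limma voom 2, 1 and 0. Among 32 regulators of apolipoprotein transcription, 2 were lower in PAM I livers and none passed in PAM II or aged no ABX livers. They were the nuclear receptor Rora (-0.83 ± 0.24, adjusted p = 0.0461) and the insulin-responsive factor Foxo1 (-0.48 ± 0.14, adjusted p = 0.0489, edgeR), calls that held in 12 and 8 of 20 alternatives. Over those alternatives the differences ran from -0.97 to -0.12 for Rora and from -0.56 to -0.22 for Foxo1. At an unadjusted p under 0.05 there were 6 of the 32 in PAM II, 8 in PAM I and 5 in aged no ABX livers. That p was reached by 22.6%, 26.7% and 19% of all genes. The list's medians were -0.19, -0.23 and -0.20. DESeq2 called 3, 5 and 1 of the 32, and limma voom 4, 6 and 0. Of 27 other secreted hepatocyte proteins, 1 was lower in each aged group, the antitrypsin gene Serpina1c, by -1.22 ± 0.21 in PAM II, -1.01 ± 0.21 in PAM I and -0.98 ± 0.21 in aged no ABX livers (adjusted p = 0.00444, 0.0116 and 0.0202, edgeR). It belongs to a family of near-identical genes that may share reads. Against young livers, 5.19%, 8.22% and 3.23% of all genes were called in PAM II, PAM I and aged no ABX livers, beside these list counts. No gene of these lists was called between the aged groups.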

How the data were processed

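Liver RNA from 16 mice was sequenced as paired reads of 100 bases, and each deposited file holds the raw counts of fragments for 1 library, which the authors left without normalization. Per the file headers, featureCounts 1.5.0-p2 counted paired fragments over exons with strand setting 1 and the Ensembl release 99 annotation of GRCm38. Per the submitters' processing notes, reads were trimmed with Trimmomatic 0.38 and aligned to mm10 with HISAT2 2.1.0. Symbols, overlaps between genes and the gene starts used for the sequences came from GENCODE M21.

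The counts were tested in R 4.3.3 with edgeR 4.0.16: filterByExpr by group, TMM scaling, 1 mean per group, robust quasi-likelihood F tests, two-sided, in 6 comparisons. CPM are TMM-scaled. A gene was called under an adjusted p of 0.05. On simulated data for aged no ABX against young livers (17046 genes), 50 genes were changed at each size and direction and 16846 were not. The test called 44% and 80% of genes lowered by 1 and 2 log2 units, 34% and 84% of those raised, and 0.0297% of unchanged genes. The adjustment depends on how many genes change, and 551 were called in the real comparison. The simulation also held no length index or plate differences. These shares are therefore not the power of the real comparisons. Correlations used 100000 permutations within groups. The smallest root mean square difference between any 2 libraries was 0.47 in log2 CPM, so none was a copy. Nothing says how the mice relate to each other. The edgeR p-values set group differences against the spread within groups and take the 4 mice of each group as independent.

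The members and lists were chosen with earlier results of these data known. All 10 members were named, and of each list up to 4 genes per comparison with the smallest p. Alternatives used DESeq2 1.42.0, limma 3.58.1 voom, other scalings and filters, marker and length covariates, and left out libraries.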

Additional observations from a re-analysis of the deposited data

Results flagged for a closer look

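Of 40 sets of 4 livers (10 genes in 4 groups), 3 held a liver whose gap to its nearest neighbour exceeded Dixon's 95% critical value for 4 samples, and chance flags about 1 set in 20. Apob in PAM II replicate 1 was 2129.95 CPM, far below the other 3 PAM II livers at 3669 to 3790 CPM. Apoc1 in PAM I replicate 2 was 3670.67 CPM, below the other 3 at 4063 to 4108 CPM. Apoc1 in young replicate 1 was 7459.55 CPM, above the other 3 at 3257 to 3857 CPM. The length index of these livers was -0.17, -0.09 and -0.25, and its part in the gaps was not tested.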

How the results depend on the processing

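No paired analysis was possible because the labels carry no replicate numbers shared between groups: numbers 1 to 4 only name the mice within a group. In no alternative did a called difference turn its direction; uncalled ones did. The number of the 10 genes called was 1 in PAM II against young livers, 2 with DESeq2, 2 in the fit of only the 8 libraries compared, 1 with the hepatocyte marker covariate (Apoa1 in place of Apom), and 0 to 1 when 1 library was left out. In PAM I against young livers it was 2, and 1 with no filter, 1 with the length index covariate, 0 with the hepatocyte marker covariate, 1 without aged no ABX replicate 4 and young replicate 1, and 1 to 2 when 1 library was left out. In aged no ABX against young livers it was 1, and 2 with DESeq2, 0 in the fit of only the 8 libraries compared, 3 with the hepatocyte marker covariate (Apoa1, Apoc3 and Apom), and 1 to 2 when 1 library was left out. It stayed 0 in every alternative of the 3 comparisons among aged livers. The cause was not tested. Over all genes, 884 calls in PAM II against young livers became 373 to 925 with 1 library left out and 644 to 1860 in other alternatives, 1401 in PAM I became 544 to 1529 and 276 to 2629, and 551 in aged no ABX became 199 to 573 and 155 to 1343. Of the listed genes, calls of Cd36 and Vldlr held in all 20 alternatives of each comparison with young livers, those of Sorl1 in 20, 19 and 20, of Serpina1c in 20, 19 and 14 and of Sort1 in 20, 19 and 11 (PAM II, PAM I, aged no ABX). With 1 library left out, calls of Foxo1, Lrp2 and Lipg held in 1 of 8 fits, of Rora and Tm6sf2 in 2 and of Klhl12 in 3. The regulator list had 0 to 4 calls in PAM II, 0 to 6 in PAM I and 0 to 2 in aged no ABX livers. Depth was no limit for the 10 genes; 4 mice per group limit the precision.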
